A study of Mus musculus with 8 samples.

Results

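Luminal progenitor genes were examined in whole mammary glands of Cre-carrying mice with 1 floxed Sox9 allele or with both alleles floxed. The 10 genes are Elf5, Kit, Aldh1a3, Ltf, Cd14, Mfge8, Lcn2, Folr1, Plet1 and Itga2. They were taken by name, and each was read from the probe set that the platform annotation pairs with that symbol alone. All 10 were measured, out of 19938 genes with such a probe set, and each of the 10 had 1 such probe set.

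RNA came from 8 virgin females of the cross C57BL/6 X FVB, 5 weeks of age, with 1 gland from each mouse on its own Affymetrix Gene 1.0 ST array. The 4 controls were MMTV-Cre;Sox9 flox/+, with a single floxed Sox9 allele beside a wild-type allele, and the other 4 mice were MMTV-Cre;Sox9 flox/flox. All 8 carried the Cre transgene, whose viral promoter is active mainly in epithelium. No gland without Cre was measured, so an effect of Cre itself was not tested. The piece of the fourth gland next to its lymph nodes was taken whole, with fat, stroma and blood cells, and no cell type was sorted.

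The luminal layer of a mammary duct holds hormone-sensing cells and a separate lineage without hormone receptors, whose progenitors give rise to the milk-secreting alveoli. That second lineage is known for the transcription factor ELF5, for the surface receptors KIT, CD14 and integrin alpha 2, and for secreted proteins that later enter milk. SOX9 protein is known from progenitors of the same lineage, and the comparison asks how these genes read when Sox9 is deleted in the epithelium at puberty.

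None of the 10 genes passed the limma test after adjustment over all genes (0 of 10, threshold 0.05), where 8 of all 19938 genes passed, a background of 0.0401%. At an unadjusted limma p under 0.05 there were 2 of the 10, against 10.3% of all genes. These were Aldh1a3, which makes retinoic acid and was the higher of the pair in flox/flox glands, and Mfge8, which marks dying cells for uptake and was lower there. Values without overlap between the genotypes were found for 1 of the 10, Aldh1a3, against 5.9% of all genes (2.74% higher and 3.16% lower in flox/flox). The difference lay above 0 for 8 of the 10 and for 47.4% of all genes (9450 of 19938). That background depends on the scaling: with the values as deposited it was 10990 of 19938 genes, beside 9 of the 10. Intensities are in arbitrary units after normalization between arrays, and log2 differences are flox/flox minus flox/+ after an offset of 16 was added. Their median was 0.07 over the 10 genes and -0.01 over all genes, and without flox/+ replicate 2 that of the 10 was 0.03. In whole glands fewer cells of a type and less RNA per cell cannot be told apart.

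**Figure D1:**
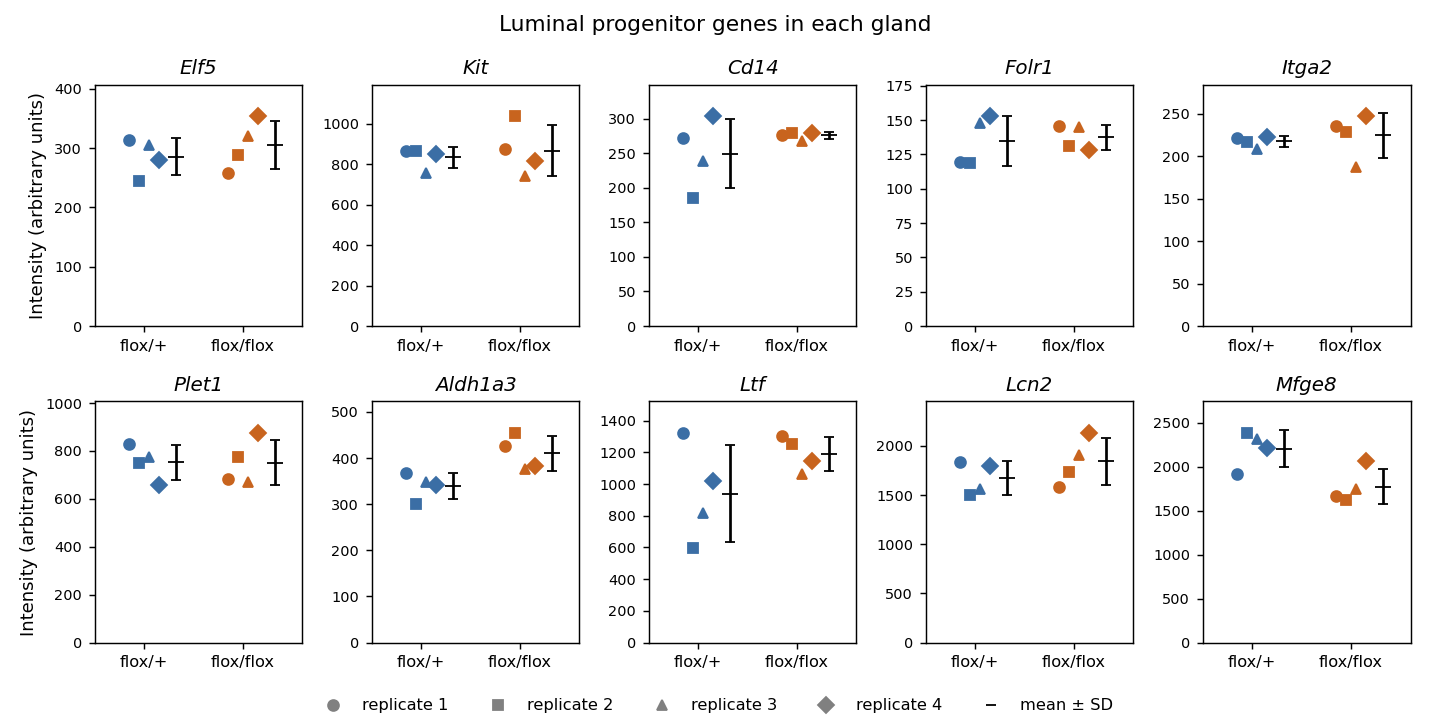
Intensity of the 10 genes in every gland, in arbitrary units from 0, with a panel for each gene. Symbols mark the replicates of flox/+ (blue) and flox/flox (orange) glands, and black marks give mean ± SD (n = 4). The genotypes overlap in every panel except that of Aldh1a3, and the Ltf controls run from 598 to 1323.

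Array medians of the deposited intensities lay between 159 and 178, and precision is limited by how few arrays there are. Sox9, the deleted gene, read 424, 448, 401 and 366 in the flox/+ glands and 298, 356, 287 and 351 in the flox/flox glands, so every flox/flox value lay below every control. The log2 difference was -0.33 ± 0.09 (SE; exact permutation p = 0.0286, limma adjusted p = 0.256). Whether the probes lie in the deleted part is not given. Epithelial genes as a whole were close between the genotypes: the pan-epithelial list had a median log2 difference of -0.03 over 18 genes, with 8 positive and 10 negative and none at an unadjusted p under 0.05. The smallest p were those of the keratin Krt19 (-0.12 ± 0.11 SE, limma adjusted p = 0.746) and the splicing factor Esrp2 (-0.10 ± 0.09, adjusted p = 0.772). The summed intensity of the list ran from 13898 to 17646 in flox/flox and from 14347 to 17129.9 in flox/+ glands. Single glands stood apart more than the genotypes did, with a mean z-score of this list of -1.14 in flox/flox replicate 1, -0.79 in flox/+ replicate 2 and 0.94 in flox/flox replicate 4. Averaged by genotype, this score was -0.04 in flox/flox and 0.04 in flox/+ glands. As a covariate it could therefore move the genotype differences given below only little.

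Start-site sequences are shown for the 3 genes on which the account turns most, where the RefSeq table (GRCm38.p6) holds them: Elf5, the transcription factor of the lineage, Lcn2, whose values followed those of Elf5 across the glands, and Mfge8. Each runs 5′ to 3′ on the gene's own strand from 250 bases before to 50 bases after a start site.

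Elf5, upstream start, chr2:103411848-103412147, plus strand: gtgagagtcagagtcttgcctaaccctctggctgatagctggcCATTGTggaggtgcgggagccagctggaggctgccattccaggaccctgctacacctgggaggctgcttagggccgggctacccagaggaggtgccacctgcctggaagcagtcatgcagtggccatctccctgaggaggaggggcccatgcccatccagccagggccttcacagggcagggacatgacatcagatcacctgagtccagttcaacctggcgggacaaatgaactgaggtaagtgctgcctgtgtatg
Lcn2, chr2:32387690-32387989, minus strand: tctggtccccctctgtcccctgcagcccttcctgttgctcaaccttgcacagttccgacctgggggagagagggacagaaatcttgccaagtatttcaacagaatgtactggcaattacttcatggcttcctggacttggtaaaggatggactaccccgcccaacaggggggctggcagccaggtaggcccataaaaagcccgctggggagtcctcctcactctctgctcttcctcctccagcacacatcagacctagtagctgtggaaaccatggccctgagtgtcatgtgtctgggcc
Mfge8, chr7:79149011-79149310, minus strand: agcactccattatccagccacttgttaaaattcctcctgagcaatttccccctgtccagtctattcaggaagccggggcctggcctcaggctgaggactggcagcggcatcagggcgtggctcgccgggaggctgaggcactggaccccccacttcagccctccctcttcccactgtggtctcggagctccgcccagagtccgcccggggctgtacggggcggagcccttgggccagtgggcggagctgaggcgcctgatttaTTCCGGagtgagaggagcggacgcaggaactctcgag

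Capitals mark matches to the motifs searched on both strands: ACAATG and ACAAAG, the cores of SOX sites, CCGGAA, an ETS core, and TTCNNNGAA, a STAT site. The upstream Elf5 start holds the reverse complement of ACAATG beginning 207 bases before the start site. Mfge8 holds the reverse complement of CCGGAA beginning at base 14 after its start site. These 2 matches do not overlap another of the motifs. The Lcn2 window and the other Elf5 start hold none of the 4. Of 32851 windows in the table, 12.6% hold ACAATG, 18.7% ACAAAG, 14.9% CCGGAA and 8.3% TTCNNNGAA. Of the 10 genes 7 had windows that were searched, 9 windows in all. The remaining windows, of Kit, Ltf, Plet1 and Itga2, hold none of these motifs. No window of Aldh1a3, Cd14 or Folr1 was searched. A match is a description of the letters and not of binding.

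Elf5 is an ETS family factor that directs luminal progenitors toward the alveolar, milk-secreting fate. Its intensity was 313, 245, 305 and 279.6 in the flox/+ glands and 259, 289, 320.4 and 354 in the flox/flox glands. The genotypes overlapped: the lowest reading was in flox/+ replicate 2 and the 2 highest were in flox/flox glands. The means were 306 ± 40.7 in flox/flox and 286 ± 30.8 in flox/+ (SD, n = 4), a log2 difference of 0.09 ± 0.10 (SE, 95% interval -0.14 to 0.32; limma adjusted p = 0.819). With the pan-epithelial score as a covariate it was 0.10. Single glands moved it more: it was 0.02 without flox/+ replicate 2 or without flox/flox replicate 4, and 0.16 without flox/flox replicate 1.

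The prolactin-activated factors STAT5A and STAT5B, which act upstream of and beside ELF5 in alveolar cells, also had intervals that span 0. Stat5a differed by -0.10 ± 0.09 (log2, SE) and Stat5b by 0.01 ± 0.07. The prolactin receptor gene was not measured by a probe set with a single symbol.

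Kit encodes the receptor for stem cell factor and is carried by luminal progenitors, mast cells and melanocytes. It read 864, 863, 757 and 849.7 in the flox/+ glands and 876, 1036, 740.2 and 817 in the flox/flox glands. Flox/flox glands thus held both the highest and the lowest value of the 8. Kit differed by 0.05 ± 0.10 on the log2 scale (SE, 95% interval -0.17 to 0.27; limma adjusted p = 0.914), and it was -0.04 without flox/flox replicate 2, the highest gland.

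Kitl, the ligand, read 546, 520.2, 565 and 505 in flox/+ and 758, 673, 532 and 691 in flox/flox glands. In 3 of 4 flox/flox glands it lay above every control, and replicate 3 was the exception. The log2 difference was 0.30 ± 0.10 (SE, unadjusted limma p = 0.0136, adjusted p = 0.332; exact permutation p = 0.0857), so the ligand did not pass either. Mast cell genes other than Kit also read higher: 7 of 8 were positive with a median of 0.33, led by the IgE receptor chain Fcer1a (0.69 ± 0.13, adjusted p = 0.106) and the tryptase Tpsb2 (0.41 ± 0.11, adjusted p = 0.250). Their summed intensity ran from 1805 to 2467 in flox/flox and from 1551 to 2107 in flox/+ glands, with no gene at 0, and their part in the Kit reading was not tested.

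Cd14 encodes the co-receptor for bacterial lipopolysaccharide and marks luminal progenitors as well as monocytes. It read 272, 185, 238 and 303 in the flox/+ glands and 277, 279.6, 268 and 279 in the flox/flox glands. The 4 flox/flox values sat close together inside the control range, with an SD of 5.48 against 50.6 in the controls. Cd14 differed by 0.16 ± 0.12 on the log2 scale (SE, 95% interval -0.11 to 0.42; limma adjusted p = 0.706); it was 0.03 without flox/+ replicate 2 and 0.25 without flox/+ replicate 4, the lowest and the highest control.

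Genes that work with CD14 in lipopolysaccharide sensing did not share 1 direction. The signalling receptor Tlr4 differed by 0.12 ± 0.11 (log2, SE), its partner Ly96 by -0.08 ± 0.14 and the lipopolysaccharide carrier Lbp by -0.26 ± 0.17. The macrophage and monocyte list had a median of 0.07, with 6 genes positive and 6 negative. The pair with the smallest p were the IgG receptor gene Fcgr1, lower without overlap (-0.37 ± 0.12 SE, limma adjusted p = 0.324), and the chemokine receptor gene Ccr2 (0.26 ± 0.13, adjusted p = 0.515). The summed intensity of the list overlapped widely, from 8151 to 11746 in flox/flox and from 7281 to 11553 in flox/+ glands.

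Folr1 encodes the alpha folate receptor, an anchored surface protein that takes up folate. It read 119, 119, 148 and 153 in the flox/+ glands and 146, 131, 145 and 128 in the flox/flox glands. All flox/flox values lay within the control range, whose members lay in a low and a high pair. Folr1 differed by 0.03 ± 0.09 on the log2 scale (SE, 95% interval -0.17 to 0.24; limma adjusted p = 0.934).

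Folr2, the related folate receptor that is known from macrophages, showed a like split among the controls, at 359, 428, 702 and 683, and read 588, 326, 531 and 422 in flox/flox glands. Both genes were thus high in flox/+ replicates 3 and 4 and in flox/flox replicates 1 and 3. Whether the Folr1 probe set also binds RNA of Folr2 was not tested. The proton-coupled folate carrier Slc46a1 differed by -0.04 ± 0.07 (log2, SE).

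Itga2 encodes the integrin alpha 2 chain, which pairs with the beta 1 chain (Itgb1) as a receptor for collagen. It read 221, 217, 209 and 223 in the flox/+ glands and 235, 229, 187 and 247 in the flox/flox glands. In 3 of 4 flox/flox glands it lay above every control and in replicate 3 below every control. Itga2 differed by 0.04 ± 0.08 on the log2 scale (SE, 95% interval -0.15 to 0.22; limma adjusted p = 0.925), and Itgb1 differed by 0.06 ± 0.08. The collagen I chains that the pair binds read lower in flox/flox glands, with differences of -0.27 ± 0.12 for Col1a1 and -0.27 ± 0.13 for Col1a2. Neither passed (limma adjusted p = 0.470 and 0.511).

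Plet1 encodes an anchored surface protein of epithelial progenitors in several tissues. It read 831, 751, 773 and 657 in the flox/+ glands and 683, 774, 672 and 875 in the flox/flox glands. The means of 751 ± 94.7 in flox/flox and 753 ± 72.4 in flox/+ (SD, n = 4) were the nearest of the 10 genes in log2 terms. The difference was -0.01 ± 0.10 (SE, 95% interval -0.23 to 0.21; limma adjusted p = 0.992).

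Aldh1a3 encodes the aldehyde dehydrogenase that turns retinaldehyde into retinoic acid, and aldehyde dehydrogenase activity is used to enrich mammary progenitors. It read 366, 301, 349 and 342 in the flox/+ glands and 427, 454, 376 and 382 in the flox/flox glands. Every flox/flox gland lay above every control, although flox/flox replicate 3 exceeded flox/+ replicate 1 by little. The means were 410.0 ± 37.2 in flox/flox and 339.7 ± 27.6 in flox/+ (SD, n = 4). The log2 difference was 0.26 ± 0.08 (SE, 95% interval 0.07 to 0.45). The exact permutation p was 0.0286, the smallest that 4 against 4 arrays allow, and limma gave 0.0108 before and 0.315 after adjustment over all genes. With the pan-epithelial score as covariate the difference was 0.26, and over the arrays left out in turn it ran from 0.21 to 0.30.

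Other genes of retinoic acid handling were split in direction. Aldh1a2, a related enzyme that is known from stroma and mesothelium, read 61.0, 97.0, 95.6 and 85.7 in the flox/+ glands and 192, 103, 175 and 114 in the flox/flox glands. Its values did not overlap between the genotypes, and the log2 difference was 0.66 ± 0.19 (SE, unadjusted limma p = 0.00496, adjusted p = 0.260; exact permutation p = 0.0286). Aldh1a1, the remaining enzyme of the trio, differed by -0.17 ± 0.09 and Rdh10, which makes the retinaldehyde that they use, by -0.11 ± 0.07. The receptors Rarb (-0.05 ± 0.12) and Rarg (-0.04 ± 0.08), the binding protein gene Crabp2 (0.08 ± 0.06) and the degrading enzymes Cyp26a1 (-0.05 ± 0.08) and Cyp26b1 (-0.13 ± 0.10) had intervals across 0. Rarb and the Cyp26 genes are themselves induced by retinoic acid in many cells.

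Ltf encodes lactoferrin, an iron-binding protein of milk that neutrophils also store. It read 1323, 598, 819 and 1019 in the flox/+ glands and 1301, 1254, 1062 and 1147 in the flox/flox glands. The controls spanned the whole range of the 8 glands and the flox/flox values lay inside it, so the genotypes overlapped fully. The means were 1191 ± 107 in flox/flox and 939.6 ± 308 in flox/+ (SD, n = 4). The log2 difference of 0.39 ± 0.19 (SE, 95% interval -0.04 to 0.82; limma adjusted p = 0.526) rested largely on the lowest control: it was 0.20 without flox/+ replicate 2 and 0.57 without flox/+ replicate 1.

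Ltf was also the least stable of the 10 genes within a genotype, with a pooled SD of 0.35 on the log2 scale that exceeded those of 98.1% of all genes. Among the other 9 this SD ran from 0.12 (Itga2) to 0.20 (Cd14). Highest over lowest gland was 2.21-fold for Ltf and 1.29-fold for Folr1.

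Lcn2 encodes lipocalin 2, which binds iron-carrying bacterial siderophores and is made by epithelium, neutrophils and fat. It read 1836, 1500.5, 1559 and 1797 in the flox/+ glands and 1584, 1739, 1911 and 2132 in the flox/flox glands. The 2 highest values were in flox/flox glands, and replicate 1 of that genotype lay among the low controls. Lcn2 differed by 0.13 ± 0.10 on the log2 scale (SE, 95% interval -0.09 to 0.36; limma adjusted p = 0.704), and 0.15 with the pan-epithelial score as covariate. It was 0.08 without flox/+ replicate 2, 0.06 without flox/flox replicate 4 and 0.20 without flox/flox replicate 1. The Lcn2 receptor gene Slc22a17 differed by -0.05 ± 0.10.

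Neutrophil genes, which could add to Ltf and Lcn2 readings, were measured at low intensities. Of 14 genes 7 were positive and 7 negative with a median of -0.00, and their summed intensity ran from 1329 to 1606 in flox/flox and from 1381 to 1528 in flox/+ glands. The brightest on average, S100a8, read 223 ± 33.4 in flox/flox and 227 ± 25.3 in flox/+ (SD, n = 4), and none was at 0. The pair with the smallest p were the neutrophil secretory gene Retnlg (0.44 ± 0.15, adjusted p = 0.332) and the antimicrobial peptide gene Camp (-0.22 ± 0.09, adjusted p = 0.450). The part of neutrophils in the Ltf and Lcn2 readings was not tested.

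Mfge8 encodes milk fat globule EGF factor 8, a secreted bridge between phosphatidylserine on dying cells and integrins on the cells that engulf them. It read 1915, 2384, 2312 and 2214 in the flox/+ glands and 1664, 1621, 1745 and 2059 in the flox/flox glands. In 3 of 4 flox/flox glands it lay below every control, and flox/flox replicate 4 lay above flox/+ replicate 1. The means were 1772 ± 198 in flox/flox and 2206 ± 206 in flox/+ (SD, n = 4), which puts the deleted genotype at 80.4% of its controls. The log2 difference was -0.31 ± 0.10 (SE, 95% interval -0.53 to -0.10). The exact permutation p was 0.0571, and limma gave 0.00726 before and 0.288 after adjustment. It was -0.31 with the pan-epithelial score as covariate and between -0.39 and -0.27 over the arrays left out in turn.

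The integrin chains that bind MFGE8 also read lower in the flox/flox glands. Each had an unadjusted limma p under 0.05, that of Itgav being 0.0478, and none passed the threshold. Such a p was found for 10.3% of all genes in either direction. Itgb3, which is besides a luminal progenitor surface marker, read 333, 313, 426 and 314 in flox/+ and 263, 231, 319 and 271 in flox/flox glands. Its log2 difference was -0.34 ± 0.12 (SE, adjusted p = 0.341), and 3 of 4 flox/flox glands lay below every control. Itgav differed by -0.22 ± 0.10 (adjusted p = 0.481) and Itgb5 by -0.21 ± 0.09 (adjusted p = 0.463), again with 3 of 4 flox/flox glands below every control. Fibroblast genes read lower too, with 7 of 11 negative, a median of -0.23 and Col3a1 (-0.27 ± 0.09, adjusted p = 0.309) and Pdgfrb (-0.23 ± 0.10, adjusted p = 0.467) in front. Their summed intensity ran from 34199 to 40447 in flox/flox and from 37644 to 48314 in flox/+ glands with no gene at 0, and their part in the Mfge8 difference was not tested.

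**Figure D2:**
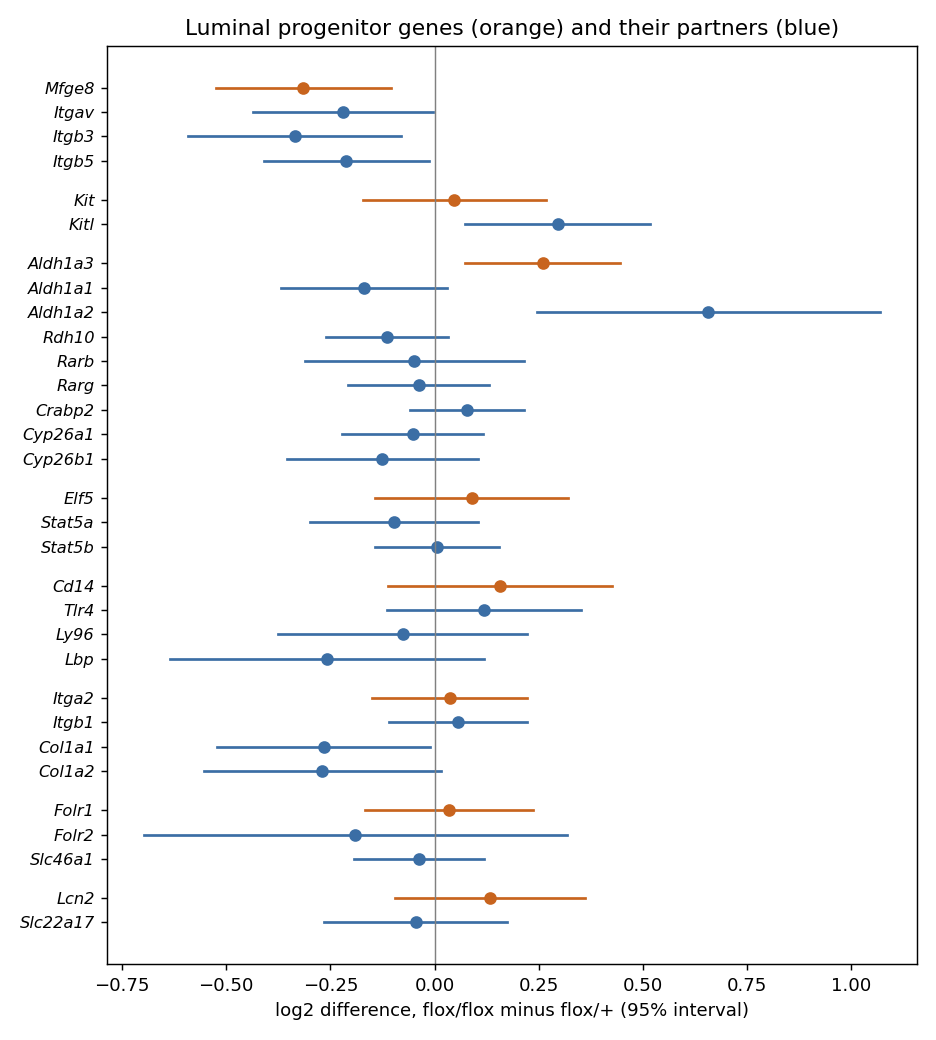
Log2 difference between flox/flox and flox/+ glands (4 arrays each) with its 95% interval for 8 of the luminal progenitor genes (orange) and their ligands, receptors or partners (blue). Mfge8 and its integrins Itgav, Itgb3 and Itgb5 all lie below 0, Kitl and Aldh1a2 lie above 0, and most other intervals cross 0.

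Of the 22 measured genes in the list of ligands, receptors and partners, 6 were positive and 16 negative with a median log2 difference of -0.06. At an unadjusted limma p under 0.05 there were 2 higher (Aldh1a2 and Kitl) and 3 lower (Itgav, Itgb5 and Col1a1), or 5 of 22 against 10.3% of all genes, and none passed after adjustment. The other luminal progenitor and alveolar genes, 19 of 22 measured, had 8 positive and 11 negative differences with a median of -0.04. Of these the protease inhibitor gene Slpi was the only one higher at an unadjusted p under 0.05 (0.40 ± 0.13 SE, adjusted p = 0.303) and Itgb3 the only one lower. Although it binds MFGE8, Itgb3 was counted in this list and not among the 22 partners. Slpi read 274, 206, 243 and 191 in flox/+ and 271, 369.7, 267 and 317 in flox/flox glands.

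Hormone-sensing luminal genes, 12 of 15 measured, had 2 positive and 10 negative differences and a median of -0.08, where the luminal progenitor genes had 8 positive and 2 negative. Values without overlap, both lower, were found for 2 of the 12, against 3.16% of all genes that were lower without overlap. These were Prom1 (-0.66 ± 0.09, adjusted p = 0.0501) and Gata3 (-0.48 ± 0.14, adjusted p = 0.259). Basal and myoepithelial genes had 9 positive of 15 and a median of 0.06. The pair with the smallest p were the cadherin Cdh3 (0.18 ± 0.08, adjusted p = 0.463) and the basal factor Trp63 (-0.19 ± 0.10, adjusted p = 0.560). Whether the luminal progenitor genes differ from these lists in their shift was not tested. White adipocyte genes, 12 of 14 measured, had a median of 0.00 with 6 positive and 6 negative, and the smallest p were those of Pck1 (-0.37 ± 0.15, adjusted p = 0.449) and the glucose transporter Slc2a4 (0.33 ± 0.16, adjusted p = 0.512). Endothelial and platelet genes, 11 of 12 measured, had a median of -0.03 with 4 positive and 7 negative, led by the tight junction gene Cldn5 (-0.56 ± 0.18, adjusted p = 0.311) and the platelet gene Pf4 (-0.30 ± 0.15, adjusted p = 0.540).

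**Figure D3:**
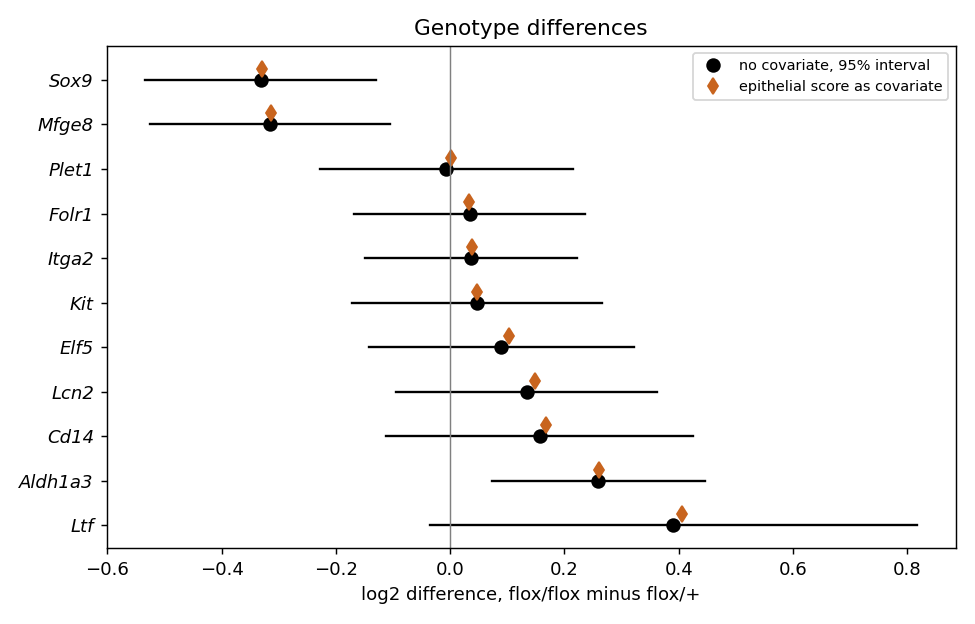
Log2 difference between flox/flox and flox/+ glands for Sox9 and the 10 luminal progenitor genes (4 arrays each), with 95% intervals from limma (black) and the estimate with the pan-epithelial score as covariate (orange). The intervals of Sox9, Mfge8 and Aldh1a3 lie clear of 0. Each estimate with the covariate lies within the interval of the estimate without it. The score was near equal in the genotypes (-0.04 in flox/flox and 0.04 in flox/+), so little shift was possible.

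Gland by gland, flox/+ replicate 2 was the low gland for these genes. It held the lowest value of 6 of the 10 (Elf5, Aldh1a3, Ltf, Cd14, Lcn2 and Folr1) and the highest of 1, Mfge8, with a median deviation of -0.19 on the log2 scale from each gene's mean over the 8 arrays. Flox/flox replicate 4 was the high gland, with the highest value of 4 (Elf5, Lcn2, Plet1 and Itga2) and a median deviation of 0.12. Both glands stood apart in the same direction in the pan-epithelial list, and flox/flox replicate 4 also had the highest basal and myoepithelial score, 1.23 against -0.46 to 0.06 in the other 7. Flox/flox replicate 1, which had the lowest epithelial score, did not have the lowest value of any of the 10 genes.

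**Figure D4:**
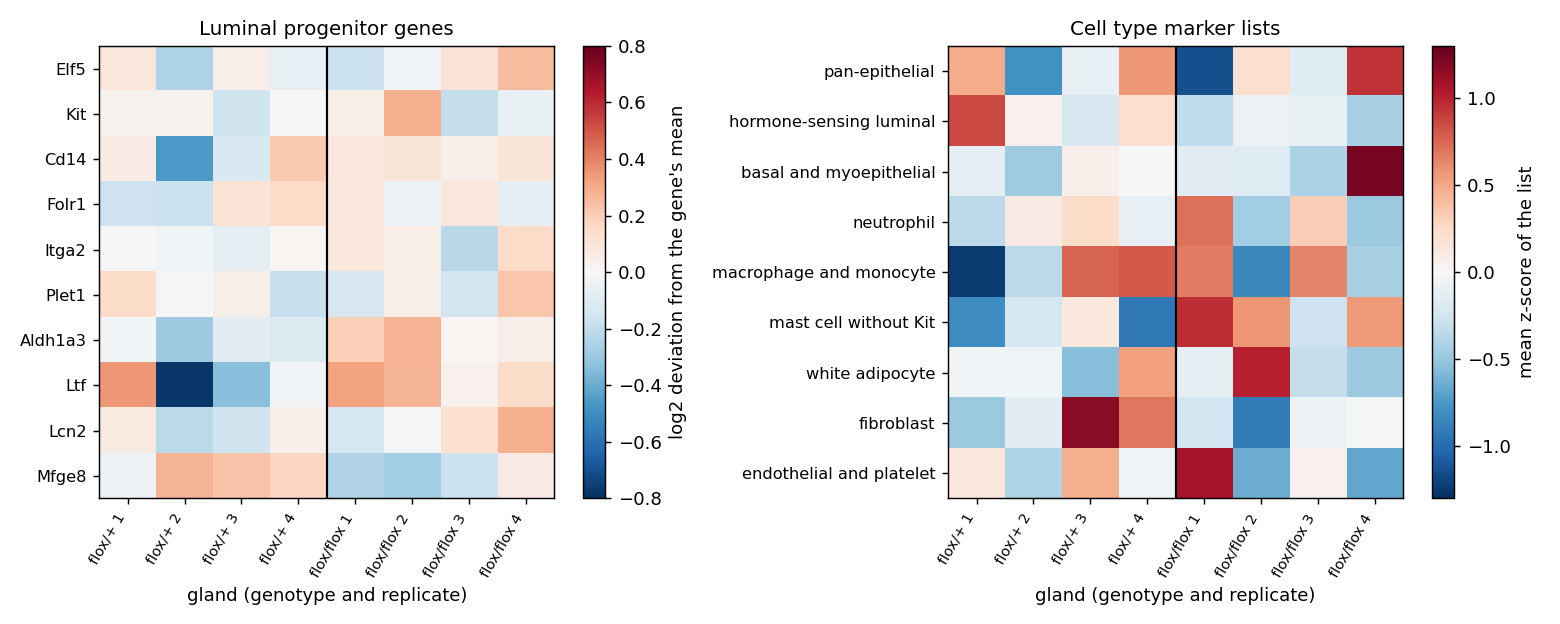
Left, log2 deviation of each of the 10 genes from its own mean in every gland, and right, mean z-score of 9 cell type marker lists in the same glands, with the mast cell list shown without Kit. The black line parts flox/+ from flox/flox glands. Flox/+ replicate 2 is blue for Ltf, Cd14, Aldh1a3, Elf5 and Lcn2, and flox/flox replicate 4 is red for the pan-epithelial and basal lists.

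The 10 genes did not follow a single profile across the glands. Likeness was measured as the mean absolute difference between z-scores over the 8 arrays, where 0 means identical profiles, and it describes these 8 glands only. Lcn2 was closest to Elf5 among the other 9 genes: at 0.348 it ranked 8 of all 19937 genes compared with Elf5. Plet1 ranked 656 (0.667), whereas Kit ranked 18559 (1.42). For Aldh1a3 the closest of the 10 was Ltf, at rank 228 (0.450), and Mfge8 ranked 19357, near the opposite end. For Kit it was Itga2, at rank 1544 (0.667). For Mfge8 none of the other 9 came nearer than Plet1 at rank 9449.

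Over all genes, the 3 nearest to Elf5 were Zcchc13 (0.239), Tktl1 (0.279) and Slco2a1 (0.294). The 3 nearest to Kit were 4430402I18Rik (0.171), Iqcb1 (0.180) and Rtcb (0.202). Those nearest to Aldh1a3 were Tm4sf1 (0.153), Ptpn21 (0.183) and Dach1 (0.189). Those nearest to Mfge8 were Cct4 (0.174), Cpa1 (0.181) and 5930403L14Rik (0.197). Of these Dach1 was higher in every flox/flox gland than in any control (0.33 ± 0.09 log2, SE, limma adjusted p = 0.260). Dach1 was picked for its likeness to Aldh1a3, whose values do not overlap between the genotypes either. Its separation follows from that choice and is not a further result.

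The 10 genes were set beside the 9 marker lists by the same measure, each list taken as the standardised mean z-score of its genes. No luminal progenitor list is among the 9, so this comparison cannot test the label of the set. The list named for each gene is the nearest of 9, picked out of 90 comparisons in all, so its likeness is a selected best. The pan-epithelial list was nearest for 5 of the 10 genes: Lcn2 (0.533, among the nearest 0.978% of all genes), Elf5 (0.549, within 1.14%), Cd14 (0.704, within 4.90%), Plet1 (0.725, within 5.79%) and Ltf (0.857, within 14.9%). The basal and myoepithelial list was nearest for Itga2 (0.730, within 4.11%). It was next nearest for Elf5 (0.661, within 2.37%), Lcn2 (0.676, within 2.71%) and Plet1 (0.745, within 4.61%). The likeness of these genes was thus not particular to the pan-epithelial list. The other 4 were nearest to lists from outside the epithelium: Folr1 to macrophages and monocytes (0.292, within 0.241%), Kit to white adipocytes (0.431, within 0.983%), Mfge8 to fibroblasts (0.612, within 6.85%) and Aldh1a3 to mast cells (0.673, within 5.97%). The pan-epithelial list itself stood at 1.24 from Kit (within 73.3%), 1.17 from Folr1 (within 62.4%), 1.07 from Aldh1a3 (within 43.9%), 1.03 from Mfge8 (within 37.9%) and 0.888 from Itga2 (within 18.1%). The mast cell list stood at 1.11 from Kit (within 49.7%), nearer than the pan-epithelial list, and the macrophage list at 1.08 from Cd14 (within 55.8%). The neutrophil list lay within 82.2% for Ltf and 90.8% for Lcn2. The mast cell list set beside Kit left Kit out, and the one set beside Aldh1a3 held it. Which cells the readings of these genes came from was not tested.

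**Figure D5:**
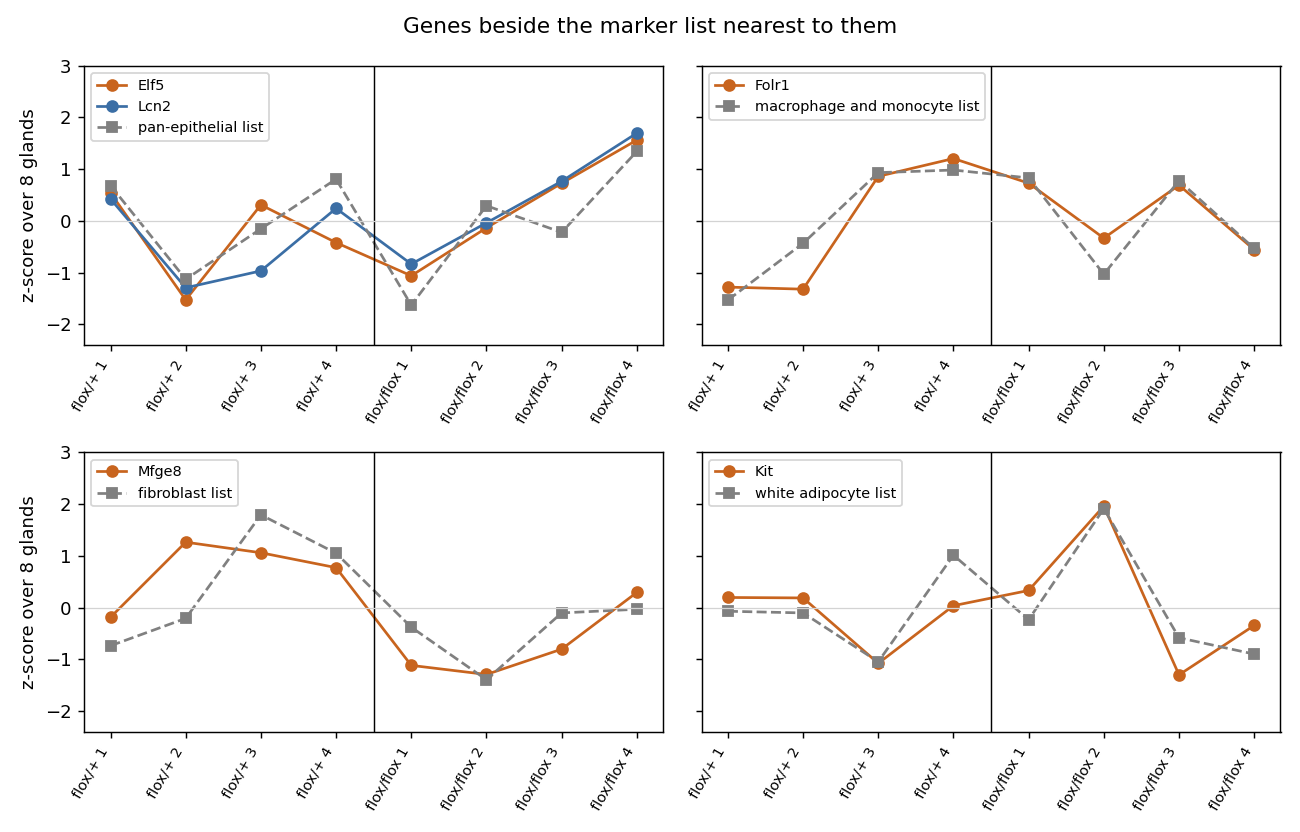
Z-scores over the 8 glands of Elf5 with Lcn2, Folr1, Mfge8 and Kit (solid) beside the standardised score of the marker list nearest to each (dashed), with flox/+ glands left and flox/flox glands right of the line. Elf5 and Lcn2 are low with the pan-epithelial list (flox/+ replicate 2, flox/flox replicate 1) and peak with it (flox/flox replicate 4). Both lie above 0 where that list lies below, at flox/flox replicate 3. Elf5 and the list also part in sign at flox/+ replicates 3 and 4 and, with Elf5 near 0, at flox/flox replicate 2. Folr1 follows the macrophage and monocyte list, and Kit peaks with the white adipocyte list in flox/flox replicate 2.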

How the data were processed

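RNA intensity was measured in 8 mammary glands, 4 per genotype, on Affymetrix Gene 1.0 ST arrays. Per the submitters' processing notes, PLIER (Expression Console 1.0) made the deposited values, which are linear intensity. How background was corrected and arrays were scaled is not given in the sources used here. There are no detection calls. Of 35557 probe sets 21789 had 1 gene symbol in the platform annotation, 1621 several and 12147 none. The brightest probe set stood for each of 19938 genes.

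Values were offset by 16, taken to log2 and quantile normalized over all probe sets, and intensities in the text are after that step. The test was limma (version 3.58.1, under R 4.3.3), with lmFit, eBayes and Benjamini-Hochberg adjustment over all genes. The log2(intensity + 16) scale understates changes of dim genes. Exact permutation tests are 2-sided over 70 assignments of the arrays and are not adjusted. Alternatives were the scaling, the offset, a filter on dim genes, all probe sets, means over probe sets, eBayes options, array weights, a replicate block, epithelial or adipocyte scores as covariates and each array left out.

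The genes and lists were chosen with earlier results of these data known. All genes of the set and Sox9 are named with their values, and from each other list the pair with the smallest p and those known as partners; S100a8, the brightest neutrophil gene, was named after its values were seen. The likeness to marker lists and the motif search were added after the values were seen. Equal replicate numbers are not said to mark shared litters or days, and the tissue identifiers begin with R in all controls and with S or T in flox/flox glands, without a stated meaning.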

Additional observations from a re-analysis of the deposited data

Results flagged for a closer look

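Kit in flox/+ replicate 3 lay far below the other controls, at an intensity of 757 against 849.7 to 864 in the other 3. Of 22 sets of 4 glands examined (Sox9 and the 10 genes in each genotype) this was the only 1 with a gland so far from the rest, and chance gives about 1 in 20. The same gland had the lowest white adipocyte score of the 8 (-0.55). That list was picked as the nearest of 9 to Kit over these same glands. A shared low gland follows in part from that choice and is not a further result.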

How the results depend on the processing

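None of the 10 genes passed under any alternative (0 in each). The count over all genes, 8, was 18 with median centring, 4 with an offset of 1, 19 with an offset of 64, 3 with the dimmest genes left out, 1 with all probe sets tested, 17 with trend and robust options and 25 at an adjusted p under 0.1. Without 1 array it ran from 2 (flox/+ replicate 4 or flox/flox replicate 4) to 21 (flox/flox replicate 3). Small differences changed sign. Plet1 was 0.0343 with the values as deposited, 0.0327 with median centring and 0.000854 with the pan-epithelial score as covariate, and ran from -0.0815 to 0.0434 without 1 array. Folr1 ran from -0.0166 to 0.0914, Itga2 from -0.00904 to 0.116 and Kit from -0.0399 to 0.119 without 1 array. Aldh1a3 (0.21 to 0.30) and Mfge8 (-0.39 to -0.27) kept their sign and an unadjusted p under 0.05 in 20 of 20 alternatives each, with adjusted p from 0.251 to 0.528 and from 0.229 to 0.508. The cause of these shifts was not tested. Same-numbered glands deviated from their group means with r between -0.20 and 0.21 over genes, so the numbers were not used as pairs; with the replicate block 8 genes passed over all and 0 of the 10, and Aldh1a3 had an adjusted p of 0.430. Without detection calls, dim genes cannot be told from background.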
